A study of Mus musculus with 10 samples.

Results

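Genes that halt or restrain cell division were examined in sorted spinal cord cells lacking Onecut factors, with Rprm, which was lower in the mutant cells, as the starting point. The genes were Rprm, its relative Rprml, the Cip/Kip inhibitors Cdkn1a, Cdkn1b and Cdkn1c, the INK4 inhibitors Cdkn2c and Cdkn2d, the antiproliferative genes Btg1 and Btg2, and the stress-response gene Gadd45g. Rprm was chosen by its lower CPM in cdKO than in control, so the values of Rprm are a description and carry no test. The 9 others were then listed as arrest genes, with earlier results of these data known. They are 10 of 48975 genes with a row in the counts, and 9 of them were among the 17840 genes that passed the filter on low counts. The remaining gene, Rprml, had 3 counts in all 10 libraries together.

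The study asked which genes depend on the Onecut (OC) transcription factors in newly born motor neurons (MNs). RNA-seq was performed on YFP-positive cells sorted by FACS from e10.5 mouse spinal cord, in 5 control and 5 conditional double-mutant (cdKO) samples. Control embryos carried Olig2-Cre+/- and Rosa26R-YFP+/- together with Oc1+/Flox and Oc2+/Flox, that is, the recombinase, the reporter and 1 floxed copy of each Oc gene. The cdKO embryos carried the same Olig2-Cre+/- and Rosa26R-YFP+/- alleles with Oc1-/Flox and Oc2-/Flox. Cre was driven by Olig2, which is active in MN progenitors and for a short time in the progenitors of V3 interneurons (INs), so the sorted cells can hold progenitors, MNs and V3 INs. The labels do not say whether a sample is 1 embryo or a pool, and p-values therefore measure the spread between these samples, which may in part be technical.

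Cells leave the division cycle when cyclin-dependent kinases are held inactive and the retinoblastoma family of proteins stays bound to E2F factors. Cip/Kip proteins bind cyclin and kinase complexes of several phases, whereas INK4 proteins block the kinases that act in G1. In the embryonic spinal cord, progenitors divide next to the lumen and switch on such inhibitors as they become neurons. Reprimo, the product of Rprm, is a small glycosylated protein known as a target of p53 that arrests cells in G2.

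Levels are given as CPM, the counts per 1000000 counts of the library after TMM scaling. Total counts per library ranged from 63932395 to 107709534 in the controls and from 72315782 to 84249157 in the cdKO samples. The targeting was visible on exon 1 of Onecut1 and in the low counts of Onecut3 in cdKO. Summed over the gene, Onecut1 overlapped between the groups (2.25 to 9.93 CPM in control and 1.03 to 4.29 CPM in cdKO). Of its counts, 68.9% lay on bins shared with Gm20649. Exon 1 of Onecut1 held 63 to 210 counts in the control libraries and 0 to 17 in the cdKO libraries, with the cdKO mean at 2.93% of the control mean (exact two-sided permutation test on log2(CPM + 0.5) of 5 against 5 samples, p = 0.0079365, the smallest that 252 arrangements allow). Onecut3 held 29 to 68 counts in the controls and 0 to 3 in the cdKO libraries (2.55% of the control mean, same exact permutation test, p = 0.0079365). Onecut2, summed over the gene, had no lower mean in cdKO (4.80 ± 3.34 CPM in control and 6.91 ± 7.14 CPM in cdKO, SD, n = 5 each). Replicate 5 was the highest library of either group, at 9.39 CPM in control and 19.2 CPM in cdKO. Leaving out that of cdKO alone gave a cdKO mean of 3.84 CPM, under the mean of all 5 controls. No direction is read for Onecut2 from these values. The paper describes the Oc2 sequences it detected as truncated transcripts that yield no working peptide. Markers of the sorted population were present in both groups: MN genes Isl1 (225 and 127 CPM, control and cdKO means) and Mnx1 (55.5 and 55.2 CPM), the progenitor gene Olig2 (66.0 and 46.6 CPM) and the neuronal tubulin gene Tubb3 (634 and 841 CPM). Among libraries, cdKO replicate 5 covered the fewest exon bins (198569, where the 9 others covered 243970 to 271591), and the scaling factor that TMM gave it was 0.717, against 0.947 to 1.17 elsewhere. In such bulk samples, fewer cells of a type and less RNA per cell cannot be told apart.

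Rprm was lower in every cdKO library than in every control library. The gene has 1 exon (ENSMUSG00000075334, chr2:54084093-54085552, minus strand, GRCm38), and its reads fall on a single bin. In control replicates 1 to 5 it was at 13.1, 14.3, 10.52, 8.85 and 11.7 CPM, from 1309, 1497, 926, 653 and 793 counts. In cdKO replicates 1 to 5 it was at 5.61, 5.01, 6.19, 5.18 and 4.72 CPM, from 442, 421, 504, 435 and 240 counts. The lowest control library stood above the highest cdKO library, and the groups did not overlap on the raw counts or relative to the total count either. The means were 11.7 ± 2.15 CPM in control and 5.34 ± 0.572 CPM in cdKO (SD, n = 5 each), a 2.19-fold lower level in cdKO, and the fitted log2 fold change was -1.13 with a standard error of 0.27. Such a gap, with cdKO lower, was present for 0.224% of all genes tested (40 genes, Rprm among them). Because Rprm was picked for this difference, nothing is read from that share.

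When each library was left out in turn, the ratio of the control mean to the cdKO mean stayed between 2.07 and 2.33. The fitted log2 fold change ranged from -1.25 to -1.05 over 20 other ways of processing the counts. These values describe a gene picked for its difference and add no support to it.

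The sequence just before the start of Rprm is shown because the gene is the one that differed and the factors removed in cdKO bind DNA. It is the RefSeq sequence of build GRCm38.p6 at chr2:54085553-54085802, minus strand, written 5′ to 3′ up to the base before the start, with each CpG pair in capitals.

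Rprm upstream: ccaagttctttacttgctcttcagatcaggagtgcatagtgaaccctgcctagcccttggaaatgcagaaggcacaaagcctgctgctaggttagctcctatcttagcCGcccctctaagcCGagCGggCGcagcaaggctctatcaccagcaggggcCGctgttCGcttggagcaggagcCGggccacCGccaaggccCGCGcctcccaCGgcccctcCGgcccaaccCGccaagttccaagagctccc

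The stretch holds 13 CpG pairs in 250 bases. The windows that RefSeq gives for the list, from 250 bases before to 50 bases after a start, were available for 9 of the 10 genes, with 11 windows among them. They had a median of 22 CpG pairs, and that of Rprm had 19, against a median of 7 and quartiles of 3 and 20 over all 32851 mouse windows. The letters ATTGAT and ATCGAT, the cores of sequences that Onecut proteins bind, were searched on both strands. ATTGAT was in 7.54% of all windows and ATCGAT in 0.925%, and neither was in any of the 11. A TATA sequence (TATAAA, either strand, 13.6% of all windows) was in the windows of Btg1 and Gadd45g alone.

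**Figure D1:**
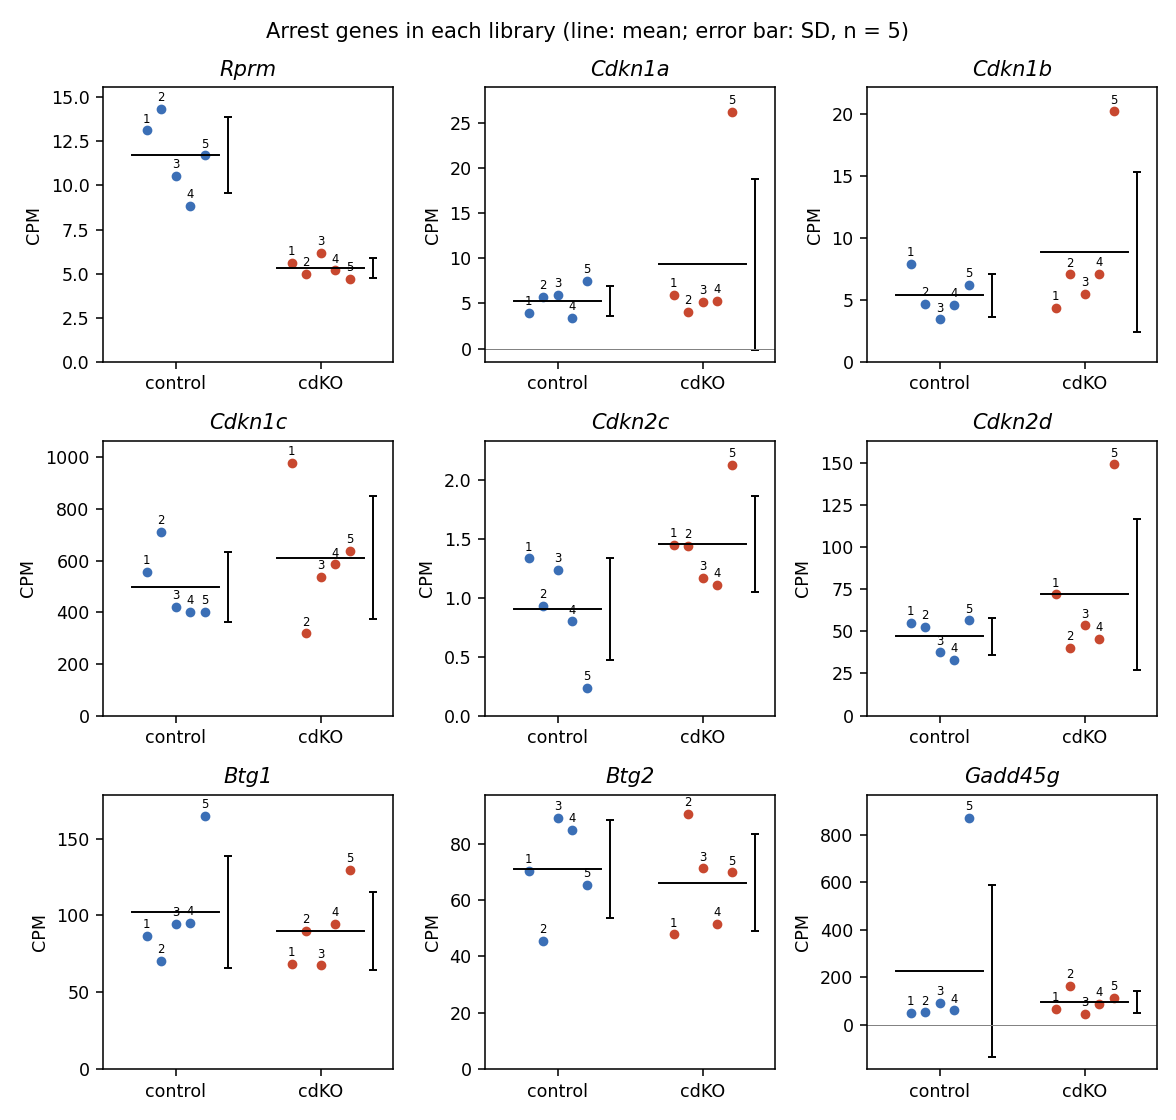
Level of 9 arrest genes in each library, in CPM on linear axes that differ between panels. Numbers beside points are replicate numbers, horizontal lines are group means and error bars are the SD of 5 samples. For Rprm the 5 cdKO points (4.72 to 6.19 CPM) all lie under the 5 control points (8.85 to 14.3 CPM), whereas the groups overlap for the other 8 genes.

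A level lower in cdKO was not general in the list. Of the 8 other genes past the filter, 5 had a higher and 3 a lower fitted level in cdKO, and for none were the groups apart (background: 0.224% of all genes tested did not overlap and were lower in cdKO, and 0.185% did not overlap and were higher). By the quasi-likelihood test of edgeR, with p-values adjusted by Benjamini-Hochberg across 17840 genes, 0 of these 8 were called at an adjusted p under 0.05 (background: 0% of all genes tested, 0 of 17840), and 0 of 8 had an unadjusted p under 0.05 (background: 4.99%, 890 genes, with 0.813% lower and 4.18% higher in cdKO). DESeq2 called 19 genes and limma-voom 3 genes over all that each tested, and none of these 8 was among them, although DESeq2 gave Gadd45g no adjusted p. Their median log2 fold change was 0.46, and that of all genes tested was -0.02. Without cdKO replicate 5, 4 were higher and 4 lower, with a median of 0.06. Leaving out control replicate 5 instead turned Btg1 (0.05) and Gadd45g (0.58) higher in cdKO. Btg2 (-0.13) was then the only one lower, so the split depended on which library was left out. The 95% intervals of all 8 held 0. The edgeR fit called no gene at all, and so missed Onecut3, whose cdKO mean was 2.55% of the control mean. That none of the 8 was called therefore cannot show that they were unchanged. The paper's own comparison lists some genes with adjusted p-values under 0.05, Onecut3 and Tac1 among them.

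Rprml (ENSMUSG00000046215, chr11:103649570-103650579), a single-exon relative of Rprm, was close to absent from the counts. It had 1 count in control replicate 1, 2 counts in cdKO replicate 3 and 0 in the other 8 libraries. Since 3 counts, the upper limit that a count of 0 allows, correspond to 0.0288 to 0.0591 CPM per library, its level lay at or under that limit in both groups and no fold is given. These limits cover counting error only.

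The Cip/Kip genes had higher means in cdKO than in control, with overlapping groups. Cdkn1a, which encodes p21, the kinase inhibitor best known as a p53 target, lies at chr17:29090979-29100722. It was at 3.94, 5.73, 5.95, 3.37 and 7.50 CPM in control replicates 1 to 5 and at 5.91, 4.03, 5.18, 5.24 and 26.2 CPM in cdKO replicates 1 to 5. Replicates 1 to 4 of cdKO lay within the control range and replicate 5 stood far above it. The log2 fold change of 0.81 (95% interval -0.29 to 1.92, adjusted p = 0.9654, edgeR) came to -0.05 without cdKO replicate 5. Of the counts of Cdkn1a, 11.1% lay on a bin that it shares with AC167363.2, and strand was not used in the counting.

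Cdkn1b, which encodes p27, an inhibitor that holds cells out of S phase, lies at chr6:134920401-134925513. Its control values were 7.88, 4.70, 3.42, 4.57 and 6.20 CPM, and its cdKO values 4.37, 7.04, 5.48, 7.08 and 20.2 CPM. Again cdKO replicates 1 to 4 lay within the control range. The log2 fold change was 0.72 (95% interval -0.21 to 1.65, adjusted p = 0.9597, edgeR) and 0.17 without cdKO replicate 5.

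Cdkn1c, which encodes p57, an imprinted inhibitor expressed by newly born neurons, had the highest summed CPM of the list (chr7:143458339-143461050). It was at 557, 711, 420.1, 403 and 402 CPM in control and at 979, 318, 536, 585 and 639 CPM in cdKO. Both the highest and the lowest of the 10 values came from cdKO libraries. The log2 fold change was 0.29 (95% interval -0.39 to 0.98, adjusted p = 0.9965, edgeR) and 0.06 without cdKO replicate 1. The ratio of cdKO to control was between 0.948 and 1.47 on the exon bins long and abundant enough to describe, and it was higher on the 3′ bins than on the 5′ bins (1.07 on bin 4 and 1.47 on bin 15). Within a library, the CPM on bin 15 was 0.677 to 0.951 of that on bin 4 in the controls and 0.696, 0.890, 1.03, 1.06 and 2.22 of it in cdKO replicates 1 to 5. Coverage thus leaned furthest to the 3′ end in cdKO replicate 5, the library that covered the fewest bins, and the part of this in the level of Cdkn1c was not tested. Of the counts of Cdkn1c, 36.9% lay on 6 bins shared with Gm44732, on which reads of the 2 genes cannot be told apart.

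The INK4 genes likewise had higher means in cdKO, with overlapping groups. Cdkn2d, which encodes p19, an inhibitor of the G1 kinases expressed in postmitotic neurons, lies at chr9:21288410-21291407. Its control values were 55.0, 52.7, 37.5, 33.2 and 56.4 CPM and its cdKO values 71.9, 40.2, 53.5, 45.3 and 149 CPM. As for Cdkn1a and Cdkn1b, the highest value was that of cdKO replicate 5, and the log2 fold change of 0.62 (95% interval -0.18 to 1.41, adjusted p = 0.9597, edgeR) became 0.17 without it.

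Cdkn2c, which encodes p18, was the least abundant gene past the filter (chr4:109660876-109667189). It was at 1.33, 0.930, 1.24, 0.800 and 0.236 CPM in control and at 1.45, 1.44, 1.17, 1.11 and 2.13 CPM in cdKO. The lowest library was control replicate 5, with 16 counts, and the highest was cdKO replicate 5. The log2 fold change was 0.68 (95% interval -0.31 to 1.67, adjusted p = 0.9818, edgeR), and leaving out control replicate 5 brought it to 0.43.

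The 2 Btg genes had nearly equal means in the groups. Btg1, a member of the BTG/TOB family that restrains proliferation, lies at chr10:96617001-96622813. Its control values were 86.7, 70.6, 94.7, 95.4 and 165 CPM and its cdKO values 68.5, 90.2, 67.6, 94.6 and 129.8 CPM. Replicate 5 was the highest of either group. The log2 fold change was -0.19 (95% interval -0.83 to 0.46, adjusted p = 0.9965, edgeR) and 0.05 without control replicate 5.

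Btg2, also called Tis21, marks neural progenitors in the division that yields neurons (chr1:134075170-134079120). It was at 70.4, 45.5, 89.0, 84.9 and 65.4 CPM in control and at 47.8, 90.5, 71.2, 51.5 and 69.8 CPM in cdKO. The groups covered almost the same range. The log2 fold change was -0.10 (95% interval -0.70 to 0.50, adjusted p = 0.998, edgeR), and it lay between -0.26 and -0.01 over the 20 alternatives.

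Gadd45g, a growth arrest gene expressed by progenitors that are about to become neurons, had the lowest ratio of cdKO to control means in the list, as low as that of Rprm (chr13:51846678-51848468). Its control values were 49.1, 52.6, 92.3, 60.4 and 872 CPM and its cdKO values 66.4, 165, 44.5, 87.2 and 112 CPM. A single library, control replicate 5, stood apart from the 9 others, which reached at most 165 CPM. Of the 5 cdKO values, 2 lay within the range of control replicates 1 to 4, 2 above it and 1 below it. The means were 225 ± 362 CPM in control and 95.1 ± 46.4 CPM in cdKO (SD, n = 5 each), with a log2 fold change of -1.24 (95% interval -2.90 to 0.41, adjusted p = 0.9615, edgeR). Without control replicate 5 the control mean was 63.6 CPM and the log2 fold change was 0.58, so the direction of this gene turned with 1 library.

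**Figure D2:**
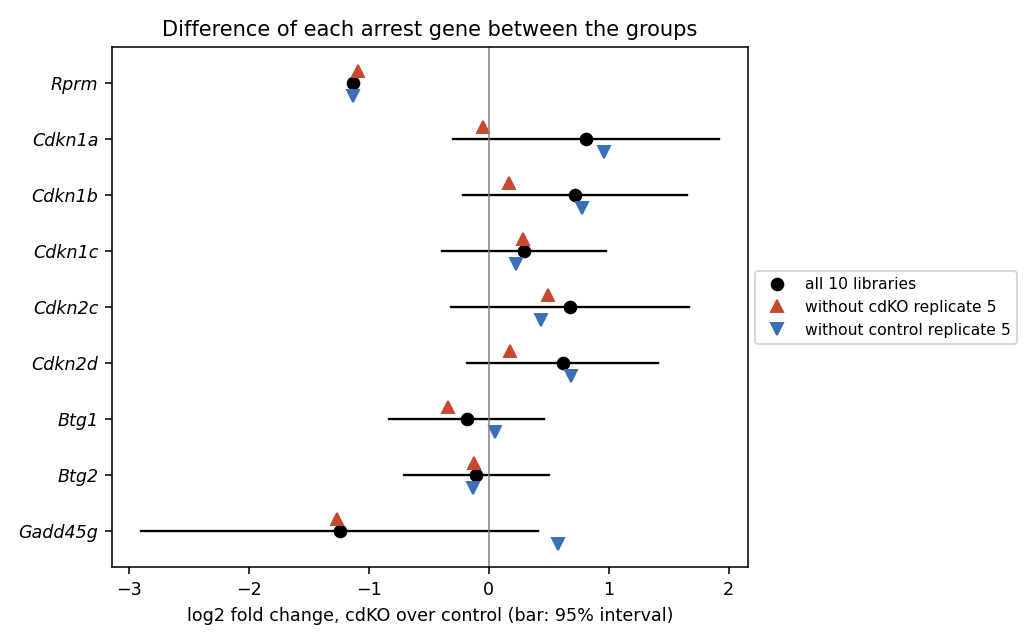
Log2 fold change of cdKO over control for 9 arrest genes (x axis), with 95% intervals from edgeR for the 8 genes tested and none for Rprm, which was not tested. Circles use all 10 libraries and triangles leave out cdKO or control replicate 5. Rprm stays near -1.1 in each case, whereas Gadd45g moves from -1.24 to 0.58 without control replicate 5 and Cdkn1a from 0.81 to -0.05 without cdKO replicate 5.

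The single high libraries were seen on most bins of their genes. Among bins with a mean of at least 0.5 CPM, cdKO replicate 5 was the highest library on 4 of 4 bins of Cdkn1a, 4 of 4 of Cdkn2d and 4 of 5 of Cdkn1b. For Cdkn1b its excess was uneven. On bin 6 in 5′ to 3′ order, the longest, it was at 1.52 CPM and control replicate 5 was higher, at 1.89 CPM. On the bins numbered 7 and 8, which hold no coding bases, it was at 5.26 and 2.30 CPM, against at most 0.990 and 0.458 CPM in any other library. On the coding bin 4 it was at 6.14 CPM, against at most 3.95 CPM. Control replicate 5 was the highest library on 7 of 7 bins of Gadd45g and on both bins of Btg1. The cdKO mean was 0.380 to 0.450 of the control mean over the bins of Gadd45g and 0.868 to 0.881 over those of Btg1, so each gene gave about the same ratio along its length.

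**Figure D3:**
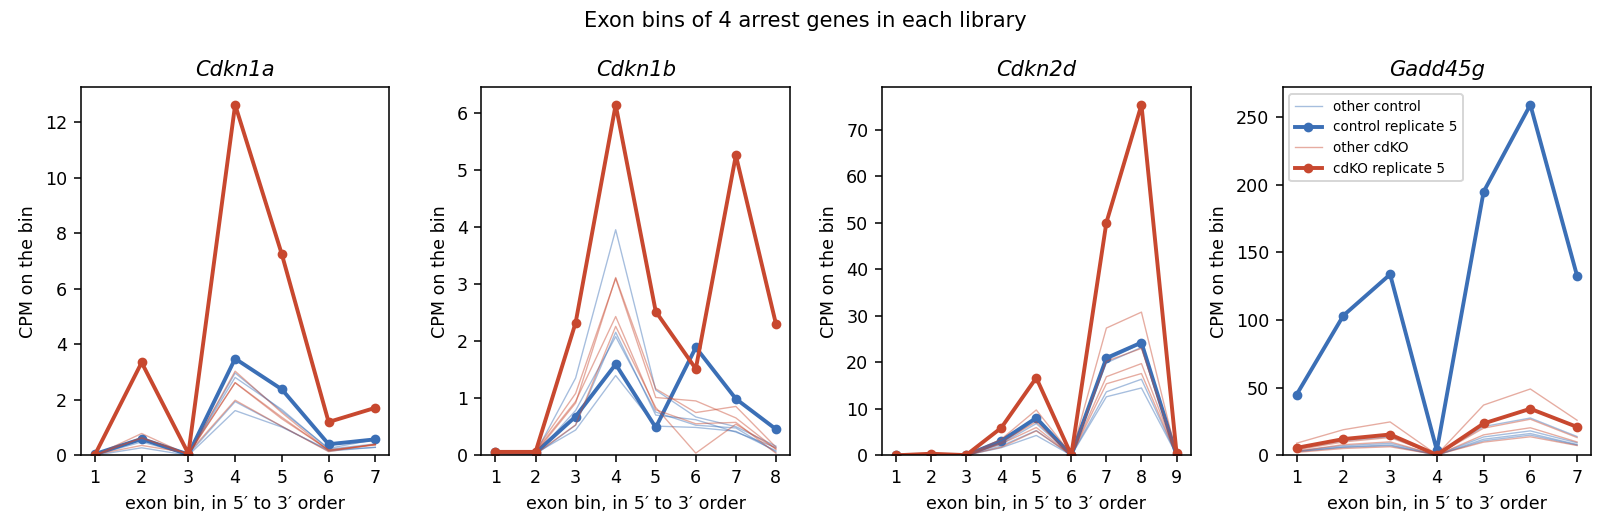
CPM on each exon bin (y axis) in 5′ to 3′ order (x axis) for Cdkn1a, Cdkn1b, Cdkn2d and Gadd45g, 1 line per library. The thick red line, cdKO replicate 5, is the highest on the abundant bins of Cdkn1a and Cdkn2d, and the thick blue line, control replicate 5, reaches 259 CPM on a bin of Gadd45g where no other library passes 49.0 CPM.

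Levels of different genes were compared per kilobase of summed exon bins (CPM per kb), a level and not a difference. A read appears to count on every bin it overlaps, so genes with many bins can rank too high (16 bins for Cdkn1c, 1 for Rprm). In the controls the order was Cdkn1c (245), Gadd45g (192), Cdkn2d (29.8), Btg2 (25.9), Btg1 (20.5), Rprm (8.02), Cdkn1a (2.38), Cdkn1b (1.18), Cdkn2c (0.338) and Rprml (0.00199). The ranges of Rprm and of its neighbours Btg1 and Cdkn1a did not overlap in the controls. The neighbours that did overlap were Cdkn1c and Gadd45g, Cdkn2d and Btg2, Btg2 and Btg1, and Cdkn1a and Cdkn1b. In cdKO, Rprm (3.66 CPM per kb) stood between Cdkn1a (4.19) and Cdkn1b (1.94) and overlapped both. The place of Cdkn1a rested on cdKO replicate 5: without that library Cdkn1a was at 2.29 and Rprm at 3.77 CPM per kb, with no overlap, and the order of the 10 genes was that of the controls. The order also depended on the bins. On the longest bin of each gene alone, Gadd45g (189 CPM per kb) stood above Cdkn1c (123) in the controls. Likewise, Cdkn1b (0.389) stood above Cdkn1a (0.370). Both of these changes rested on control replicate 5. On its longest bin Gadd45g was at 259 CPM there, against 14.9 to 27.6 CPM in the other controls. For Cdkn1b these values were 1.89 CPM and 0.489 to 0.672 CPM. The overlap of Cdkn1c and Gadd45g in the controls also rested on that library. Over the gene, Gadd45g was at 872 CPM there and at 49.1 to 92.3 CPM in the other controls.

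The sorted cells differed between libraries in the balance of dividing and neuronal genes, and control replicate 5, the high library of Gadd45g and Btg1, was at one end of it. Summed over 11 genes of postmitotic neurons, control replicate 5 had the lowest level of all libraries (1188 CPM, against 2039 to 6675 CPM), and over 17 proliferation genes it had the highest (7654 CPM, against 3587 to 6582 CPM). Not every neuronal gene was low in control replicate 5. The MN gene Isl1 was at its highest level of any library there (347 CPM, against 95.8 to 252.5 CPM elsewhere). Mnx1, also an MN gene, was at its lowest (29.9 CPM). The sum of 4 V3 IN genes in control replicate 5 was 99.8 CPM, against 21.7 to 39.2 CPM elsewhere. Most of that sum was Nkx2-9, a gene of ventral progenitors, at 84.4 CPM, against 7.88 to 28.8 CPM elsewhere. The high sum thus rested largely on that gene and is not read as a level of V3 INs. In cdKO replicate 5 the sum of neuron genes was the highest (6675 CPM), but Stmn2, a neuronal microtubule gene, made up 2544 CPM of it, and without Stmn2 the sum (4131 CPM, an alternative chosen after seeing the data) was under those of control replicate 1 (4977 CPM) and cdKO replicate 1 (4518 CPM). In the same library, the sum of proliferation genes was the lowest (3587 CPM), that of 13 spinal progenitor genes the highest (3939 CPM) and that of 9 MN genes the lowest (404 CPM). Olig2, on the progenitor list, went the other way, with its lowest level of any library (26.3 CPM, against 33.4 to 87.7 CPM elsewhere). The sum of progenitor genes therefore does not stand for each gene on the list. The part of this balance in the levels of Gadd45g, Btg1, Cdkn1a, Cdkn1b and Cdkn2d was not tested. Rprm was at 11.7 CPM in control replicate 5 and at 4.72 CPM in cdKO replicate 5, the median of the controls and the lowest of the cdKO values.

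**Figure D4:**
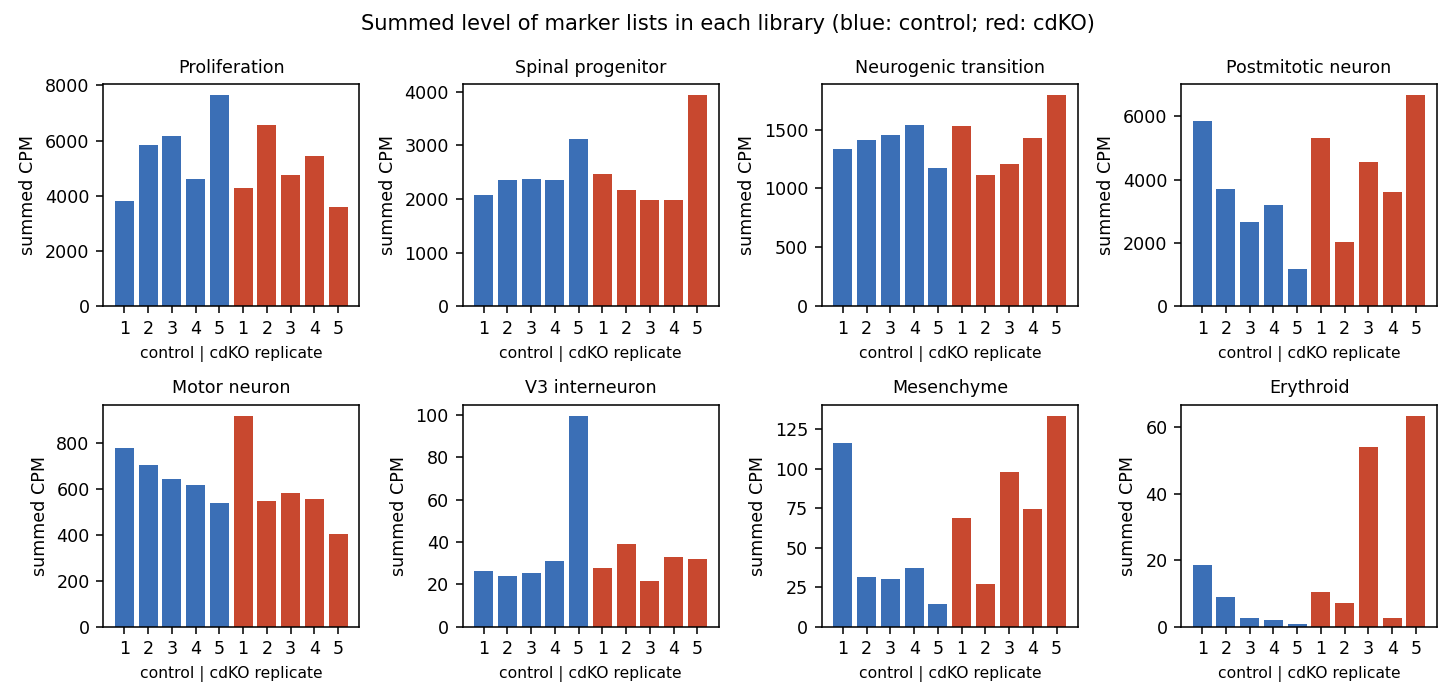
Summed CPM of 8 lists of marker genes (y axes, starting at 0) in each library, with control replicates 1 to 5 in blue and cdKO replicates 1 to 5 in red. Control replicate 5 has the lowest bar for postmitotic neurons (1188 CPM) and the highest for proliferation (7654 CPM) and V3 INs (99.8 CPM, of which Nkx2-9 gave 84.4 CPM). The highest bar for spinal progenitors (3939 CPM) is that of cdKO replicate 5, although Olig2, on that list, was at its lowest there (26.3 CPM).

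Markers of cells other than spinal neurons were also present. The mesenchymal gene Dcn was at 34.5 ± 36.1 CPM in control and 62.8 ± 37.2 CPM in cdKO (SD, n = 5 each). Its cdKO mean was above that of the progenitor gene Olig2. The sum of 8 erythroid genes, of which 5 passed the filter, ranged from 0.871 to 18.5 CPM in control and from 2.60 to 63.4 CPM in cdKO, and all 5 had a higher fitted level in cdKO, with a median log2 fold change of 2.10, the highest of any list. That of 8 mesenchymal genes, all past the filter, ranged from 14.7 to 116 CPM in control and from 27.2 to 134 CPM in cdKO, and all 8 had a higher fitted level in cdKO, with a median of 0.61. Of these 13 genes, 0 were called by edgeR, and 3 had an unadjusted p under 0.05 (Hba-a1, Col1a2 and Twist1, named after their values were seen). Sums of 8 macrophage genes (3.15 to 6.93 CPM) and of 6 endothelial genes (1.61 to 3.38 CPM) were low in all 10 libraries. In each of them 1 of the macrophage genes was at 0. The sum of 6 neural crest and sensory genes ranged from 21.2 to 64.5 CPM. The groups overlapped in each of these sums. Their part in the arrest genes was not tested.

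Further genes of the same machinery were examined as lists that had also been chosen with earlier results of these data known. Of 9 relatives of the arrest genes (Cdkn2a, Cdkn2b, Cdkn3, Btg3, Btg4, Tob1, Tob2, Gadd45a and Gadd45b), 6 passed the filter and 0 were called, with a median log2 fold change of -0.17 and 5 of 6 below 0. Btg3 was at 28.0 ± 13.4 CPM in control and 25.1 ± 7.57 CPM in cdKO, and Gadd45a at 27.7 ± 6.61 and 24.3 ± 5.84 CPM (SD, n = 5 each). Of 20 genes of the p53 pathway, the pathway through which Rprm and Cdkn1a are known to be switched on, 17 passed the filter, 0 were called and the median was -0.07. Trp53 itself was at 165 ± 32.7 CPM in control and 145 ± 25.3 CPM in cdKO, and Bax, a p53 target that promotes cell death, at 210.0 ± 56.4 and 369 ± 282 CPM (adjusted p = 0.93841, edgeR).

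Downstream of the inhibitors, the 3 lists of cell cycle genes lay slightly under 0 with no gene called by edgeR. For 15 pocket protein, E2F and DREAM genes the median log2 fold change was -0.23, with 13 below 0. For 16 cyclin and kinase genes it was -0.22, with 13 below 0, and for 17 proliferation genes -0.22, with 13 below 0, against 51.8% of all genes tested below 0. In all 3 lists the summed CPM was highest in control replicate 5 and lowest in cdKO replicate 5. In replicates 1 to 4 the sums of the first list overlapped, at 533 to 636 CPM in control and 455 to 653 CPM in cdKO. They were 3299 to 4446.5 and 3812 to 4290 CPM for the second list, and 3828 to 6154 and 4279 to 6582 CPM for the third. The part of replicate 5 of either group in the medians was not tested. Cdk4, the main G1 kinase that INK4 proteins block, was at 1996 ± 359 CPM in control and 2052 ± 227 CPM in cdKO. Rrm2, which makes nucleotides for replication, was at 1019 ± 556 and 642 ± 297 CPM, and E2f6 at 105 ± 11.8 and 90.0 ± 37.6 CPM (SD, n = 5 each). In these 3 lists and those of the p53 pathway and of the relatives, 1 of 71 genes past the filter had an unadjusted p under 0.05 (background: 4.99%), and it was Cenpf, a kinetochore gene named after its value was seen (log2 fold change -1.43).

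Genes of the steps around cycle exit were not called either. The 15 genes of the neurogenic transition had a median log2 fold change of 0.00, with Hes6, which promotes neurogenesis, at 279 ± 66.3 CPM in control and 356 ± 139 CPM in cdKO. The 13 progenitor genes had a median of -0.15, the 11 postmitotic neuron genes 0.22, the 9 MN genes 0.02 and the 4 V3 IN genes 0.00. The MN gene Isl1 had the lowest unadjusted p among the MN genes (0.018009), with a log2 fold change of -0.82 and an adjusted p of 0.93841 (edgeR).

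Within the groups, Rprm did not follow the other arrest genes closely. As a description over 10 libraries, with each value taken relative to its group mean on the log2 scale of CPM plus 0.5, the correlation with Rprm was 0.49 for Cdkn1c, 0.16 for Cdkn2d, -0.06 for Cdkn2c, -0.11 for Cdkn1a, -0.13 for Cdkn1b, -0.21 for Gadd45g, -0.47 for Btg1 and -0.60 for Btg2. Without cdKO replicate 5, that of Cdkn2d was 0.75 and that of Cdkn1a 0.40. The genes whose pattern within groups was most like that of Rprm were Dapk3 (0.94), 4930442H23Rik (0.94), Ckb-ps1 (0.93), Bloc1s5 (0.91) and Hspb8 (0.90), and those most opposite were Maml3 (-0.96), Gm45094 (-0.95), Frem2 (-0.95), Clcn5 (-0.95) and Gm26930 (-0.93). Dapk3, a kinase of the death-associated family, was at 57.7 CPM in control and 67.2 CPM in cdKO on average, so the gene closest to Rprm within groups was not lower in cdKO. All values of a library share its depth, scaling and mix of cells, and the extremes were taken from all genes tested.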

How the data were processed

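RNA of FACS-sorted YFP-positive cells of e10.5 spinal cord was sequenced in 5 control and 5 cdKO samples. The sample titles gave the group and the replicate number. The authors deposited whole-number counts per exon bin, not normalized. The submitters' processing notes name bcl2fastq 2.17, Trimmomatic 0.36, STAR 2.5.2b, Subread 1.5.2, DESeq2 and GRCm38, and the annotation release is not given in the sources used here. Each of the 10 files holds the same 425461 bins. Short bins that touch others (7355 of at most 5 bases) had a median of 1.05 times the count of their lower neighbour, as when a read is counted on every bin it overlaps, and the counts were identical for 16 of 16 intervals that appear on each strand, so the counting ignored strand. A gene whose reads span more bins thus has a larger sum.

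Bins were summed per gene with GENCODE M21 symbols (49384 of 49644 identifiers found). A bin of several genes went to the gene whose exons cover it, or to the sole protein-coding gene where several do, and otherwise it was left out (3974 bins, 1.17% of counts). Genes were filtered with filterByExpr (minimum count 10). After TMM scaling, edgeR 4.0.16 (R 4.3.3) gave quasi-likelihood tests, and p-values adjusted over all genes were called under 0.05. DESeq2 1.42.0 and limma 3.58.1 (voom) were alternatives, beside other scalings, filters, bin choices, a replicate block and leaving out each library. The group levels and medians without cdKO replicate 5 and the neuron sum without Stmn2 were added after seeing the data. The fits were tested on simulated data. Within each group, no libraries were duplicates of each other, and libraries of different groups were not compared for this.

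The members of the gene list, the other gene lists and the tests were chosen with earlier results of these data known. All 10 members are described, with the Onecut genes, 4 markers of the sorted cells, the 5 genes most like and the 5 least like Rprm within groups, and from each list the genes called or otherwise the 2 of highest mean CPM (not all of these are named). Genes outside this rule are said to be so. Correlations used log2(CPM + 0.5). Promoter windows and the printed sequence are from RefSeq (GRCm38.p6), and bins follow GRCm38. The 95% intervals are those of the edgeR fit.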

Additional observations from a re-analysis of the deposited data

Results flagged for a closer look

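In groups of 5 samples, a library was picked out when its gap to the nearest other library, divided by the range of the group, passed Dixon's critical value at the 95% level. Over the 9 arrest genes, the marker list sums and measures of the libraries, 52 groups were examined and 8 met this. A rate of 1 in 20, which would give 2.6, holds for independent groups of normally distributed values. These measures come from the same libraries and overlap in genes, so no excess over chance is read from the 8. Of the 8, 4 came from cdKO replicate 5, 3 from control replicate 5 and 1 from control replicate 1.

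Among the arrest genes, Cdkn1a was at 26.2 CPM in cdKO replicate 5, against 4.03 to 5.91 CPM in the other cdKO libraries, and Cdkn1b was at 20.2 CPM in the same library, against 4.37 to 7.08 CPM. Gadd45g was at 872 CPM in control replicate 5, against 49.1 to 92.3 CPM in the other controls, and Btg1 was at 165 CPM there, against 70.6 to 95.4 CPM. No value of Rprm, Cdkn1c, Cdkn2c, Cdkn2d or Btg2 met the criterion in either group.

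Among the other measures, cdKO replicate 5 covered 198569 exon bins, where cdKO replicates 1 to 4 covered 254982 to 264487, and it had a sum of 3939 CPM for the spinal progenitor genes, against 1980 to 2465 CPM. Olig2, on that list, was at 26.3 CPM in this library, its lowest level of any library. Control replicate 5 had a sum of 99.8 CPM for the V3 IN genes, against 24.0 to 31.1 CPM in the other controls, and Nkx2-9 made up 84.4 CPM of it. Control replicate 1 had a sum of 116 CPM for the mesenchymal genes, against 14.7 to 37.1 CPM.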

How the results depend on the processing

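Rprm kept its direction in all 20 alternatives, with log2 fold changes from -1.25 to -1.05. The other 8 genes kept theirs in all but 3 of 160: without control replicate 5, Btg1 and Gadd45g came out higher in cdKO, and without cdKO replicate 5, Cdkn1a came out lower. With 1 library left out, Cdkn1a ranged from -0.04674 to 0.9961, Btg1 from -0.3422 to 0.05021 and Gadd45g from -1.54 to 0.5778. The lowest adjusted p of these 8 in any alternative was 0.69. Of the 10 arrest genes, 0 were called by edgeR and 1 by DESeq2, which was Rprm itself and is no independent support. Over all genes, 0 were called by edgeR, 1 when scaled by library size only, 1 with no count filter, 3 by limma-voom, 19 by DESeq2, and 0 to 4 when 1 library was left out (4 without control replicate 5 and 1 without cdKO replicate 5). The number with an unadjusted p under 0.05 was 890, against 323 by limma-voom, 1426 by DESeq2, 2117 with no filter and 311 to 1356 with 1 library left out. Of the 890, 745 were higher and 145 lower in cdKO, against 381 and 252 by library size only, which moved the median over all genes, on the log2 scale, from -0.02 to -0.15, and 109 and 319 without cdKO replicate 5. Taking the longest bin alone moved the control level of Cdkn1a from 2.38 to 0.370 CPM per kb and Cdkn1b from 1.18 to 0.389. It moved Cdkn1c from 245 to 123 and Cdkn2d from 29.8 to 39.5, with Gadd45g at 189. Gadd45g thus passed Cdkn1c and Cdkn1b passed Cdkn1a, and both changes of order rested on control replicate 5. The causes of the moved levels were not tested. Libraries with the same replicate number in both groups had deviations that correlated at 0.09, -0.32, 0.17, 0.43 and 0.36 for numbers 1 to 5. Libraries of different numbers were not compared in this way, so these values cannot settle whether the numbers pair the samples. The labels state no pairing, and the main fit used none. With the replicate block, Rprm came to -1.12 and Gadd45g to -0.20, 0 genes were called and 462 had an unadjusted p under 0.05. With 5 libraries a group, differences within the intervals given could not be told from 0, and sorted populations of mixed cells limit what a sum over them shows.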
